A study of Mus musculus with 18 samples.

Results

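The genes described here encode the subunits of the mitochondrial respiratory chain and ATP synthase. They were taken from the deposited count table by name: protein-coding genes whose symbols start with mt-, Ndufa, Ndufb, Ndufc, Ndufs, Ndufv, Uqcr, Cox4 to Cox8 or Atp5, together with Sdha to Sdhd, and without the Ndufaf assembly factors. The rule found 98 of 40481 gene IDs, 13 of them on mitochondrial DNA and 85 in the nucleus, among 21534 protein-coding IDs. The mitochondrial genes hold 7 subunits of complex I, 1 of complex III, 3 of complex IV and 2 of ATP synthase (complex V). The nuclear genes hold 36 of complex I, 4 of complex II, 8 of complex III, 20 of complex IV (Ndufa4 and Ndufa4l2 included) and 16 of complex V, and Atp5s, which is named for ATP synthase without being a subunit.

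Neutrophils were sorted from C57BL/6 mouse lung as live CD45+ CD11b+ Ly6G+ cells and divided by CD101, a surface protein of mature neutrophils. The mice were wild type (WT) or a CYBB knockout, a model of chronic granulomatous disease (CGD) in which phagocytes cannot make superoxide with NADPH oxidase. The 6 groups of 3 libraries were WT and CGD CD101pos cells from naive mice, and WT and CGD CD101pos and CD101neg cells taken 24 h after 20 µg of sterile zymosan, a yeast cell wall particle, was given into the nose. The 18 libraries hold no naive CD101neg group. The challenged mice were females of 13 weeks and the unchallenged mice males of 12 weeks, which means that the effect of zymosan cannot be told apart from sex and age. The labels do not say whether the 3 libraries of a group are 3 animals, and every p-value below therefore rests on a spread between libraries that may be partly technical.

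Complexes I to IV pass electrons from NADH and succinate to oxygen, all but complex II pump protons across the inner mitochondrial membrane, and ATP synthase uses the proton gradient to make ATP. A few core subunits of complexes I, III, IV and V are encoded by mitochondrial DNA, which is transcribed inside the organelle from both strands as long precursors, while all other subunits are made from nuclear genes and imported. Neutrophils hold few mitochondria, draw most of their ATP from glycolysis and lose mitochondrial content as they mature.

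Library totals ranged from 33.7 to 67.9 M counts. Levels are given below as counts per 1000000 reads (CPM) after trimmed-mean (TMM) scaling, whose factors ranged from 0.702 to 1.24 and were lowest in the CGD zymosan CD101neg libraries (0.702 to 0.809). Cybb was at 126 to 283 CPM in the WT libraries and at 29.6 to 59.5 CPM in the CGD libraries. All 10 neutrophil markers averaged 1 CPM or more in every group, and Ly6g, the marker of the gate, ranged from 6.78 to 230 CPM. Markers of other cells were also present. The summed level of 10 alveolar macrophage markers, which include Chil3, a gene that neutrophils also express, was 167 to 190 CPM in WT naive, 196 to 479 in CGD naive, 487 to 684 in WT zymosan CD101pos, 446 to 676 in WT zymosan CD101neg, 2294 to 2760 in CGD zymosan CD101pos and 1598 to 2621 CPM in CGD zymosan CD101neg libraries. The summed level of 7 B cell markers was 430 to 454 CPM in WT naive, 299 to 437 in CGD naive, 149 to 175 in WT zymosan CD101pos, 116 to 145 in WT zymosan CD101neg, 42.8 to 63.2 in CGD zymosan CD101pos and 26.4 to 43.1 CPM in CGD zymosan CD101neg libraries, where Pax5 was at 0. The summed level of 7 epithelial markers, 6 of which averaged 1 CPM or more in every group, was 1702 to 1810 CPM in WT naive, 589 to 1741 in CGD naive, 365 to 1371 in WT zymosan CD101pos, 488 to 1024 in WT zymosan CD101neg, 973 to 1117 in CGD zymosan CD101pos and 320 to 613 CPM in CGD zymosan CD101neg libraries. It was lower without overlap after zymosan in WT CD101pos cells, and in CD101neg than in CD101pos cells of CGD mice. These lists differed between groups, and their part in the results below was not tested.

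Several mitochondrial genes have near-identical copies on nuclear chromosome 1, annotated as pseudogenes, and reads from the shared stretches can be assigned to either place. The sequences below show the edge of the copy of mt-Co1, the most abundant gene of the set, and stretches of mt-Co2 and mt-Nd4 that do not differ from theirs. Each is written 5′ to 3′ along the gene in GRCm38, from GENCODE M21 transcripts, with capitals at the bases that differ between the gene and its copy.
mt-Co1 at chrM:6381-6440, plus strand: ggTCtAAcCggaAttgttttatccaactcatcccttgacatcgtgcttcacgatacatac
Gm29216 at chr1:24616138-24616197, minus strand: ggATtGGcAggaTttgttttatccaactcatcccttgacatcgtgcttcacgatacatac
mt-Co2 at chrM:7013-7072, plus strand: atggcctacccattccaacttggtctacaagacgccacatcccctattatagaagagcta
Gm28661 at chr1:24615506-24615565, minus strand: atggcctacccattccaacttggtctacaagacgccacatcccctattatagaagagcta
mt-Nd4 at chrM:10167-10226, plus strand: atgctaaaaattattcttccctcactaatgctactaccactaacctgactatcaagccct
Gm28439 at chr1:24612351-24612410, minus strand: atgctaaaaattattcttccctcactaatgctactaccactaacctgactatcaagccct

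The copy of mt-Co1 aligned over 492 bases with 6 mismatches, all in the window shown, and the copy of mt-Co2 over 681 bases with 0 mismatches. Counted as 50-base words that also occur in another annotated transcript, the shared part was 100% of mt-Co2, 99.9% of mt-Co3, 99.5% of mt-Atp6, 98.8% of mt-Nd4l, 98.0% of mt-Nd3, 62.2% of mt-Nd4 and 51.1% of mt-Co1. It was 8.19% of mt-Nd2 and 7.61% of mt-Nd5, and mt-Nd1, mt-Nd6, mt-Cytb and mt-Atp8 shared no word. The copies of mt-Co1, mt-Co2, mt-Co3 and mt-Atp6 held reads in every library. Gm29216, that of mt-Co1, had 836 to 1896 counts per library, and Gm10925, the copy of mt-Atp6, averaged 16.6 CPM against 14.9 CPM for mt-Atp6 itself. The treatment of such reads is not stated, which makes the levels of the 5 genes with over 90% shared words uncertain. Among nuclear members, 11 shared over 10% of their words with another transcript, including Atp5g2 (36.7%) and Uqcrb (25.4%).

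**Figure D1:**
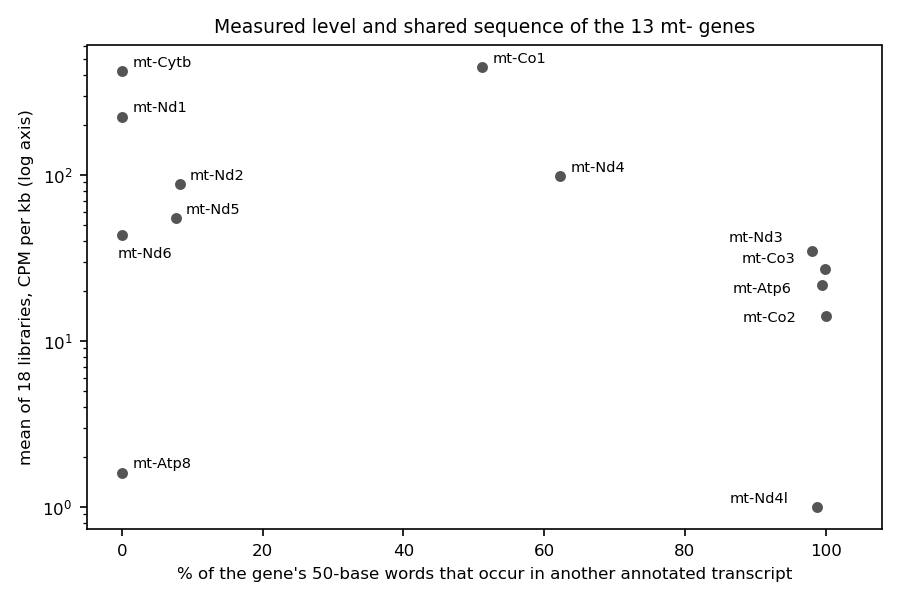
Each point is 1 of the 13 mitochondrially encoded genes, with the percentage of its 50-base words that also occur in another transcript on the horizontal axis and its mean CPM per kilobase of exon over 18 libraries on a log vertical axis. mt-Cytb and mt-Nd1, with no shared word, sit at 422 and 224 CPM per kb, and the 5 genes with over 90% shared words lie at 34.9 CPM per kb or below.

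The mitochondrial reads were dominated by 3 genes. mt-Co1, the catalytic subunit of complex IV, averaged 685 CPM over the 18 libraries, mt-Cytb, the cytochrome b of complex III, 483 CPM and mt-Nd1, a membrane subunit of complex I, 215 CPM. Together they took 77.0% of the reads of the 13 genes. Per kilobase of exon they were also the highest of all 98 members, at 444, 422 and 224 CPM per kb. The other complex I genes followed, with mt-Nd4 at 98.5, mt-Nd2 at 88.0, mt-Nd5 at 54.8, mt-Nd6 at 43.2 and mt-Nd3 at 34.9 CPM per kb. The remaining complex IV and V genes were lower, with mt-Co3 at 27.1, mt-Atp6 at 21.8, mt-Co2 at 14.1 and mt-Atp8 at 1.61 CPM per kb, and mt-Nd4l was lowest at 0.996 CPM per kb. Genes of the heavy strand are cut from shared precursors, and their levels per length nevertheless differed. The 6 lowest were mt-Atp8 and the 5 genes with over 90% of words shared with the nuclear copies.

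Among the nuclear genes the highest mean levels were 212 CPM for Atp5b, the catalytic beta subunit of ATP synthase, 206 CPM for Cox4i1, the main isoform of complex IV subunit 4, and 197 CPM for Atp5f1, a subunit of the ATP synthase stalk. Per kilobase the small complex IV subunits led, with Cox6a1 at 203, Cox8a at 202 and Cox6b1 at 146 CPM per kb. The median nuclear subunit was at 14.6 CPM per kb in complex I, 38.7 in complex II, 35.1 in complex III, 20.8 in complex IV and 29.4 CPM per kb in complex V. Of the 85 nuclear genes 75 averaged 10 CPM or more. The 8 members below 1 CPM in every group were mt-Nd4l, mt-Atp8, Atp5s and the complex IV genes Cox6b2, Cox7a1, Cox7b2, Cox8b and Cox8c, which are isoforms of muscle, fat or testis.

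In every group the mitochondrial genes gave fewer reads than the nuclear ones, at between 0.276 and 0.557 mitochondrial reads per nuclear read over the 18 libraries. This ratio is formed within a library and does not depend on the scaling. It does depend on how reads shared with the nuclear copies were treated, which is not stated. Whether mitochondrial transcripts were fewer than nuclear ones can therefore not be read from its size. The ratio was 0.335, 0.471 and 0.413 in the WT naive libraries and 0.276, 0.445 and 0.413 in the CGD naive libraries. The CD101pos libraries after zymosan had 0.335, 0.403 and 0.326 in WT and 0.380, 0.400 and 0.557 in CGD. The CD101neg libraries had 0.480, 0.464 and 0.421 in WT and 0.420, 0.407 and 0.463 in CGD. The group means were 0.406 ± 0.068 (SD, n = 3), 0.378 ± 0.090, 0.355 ± 0.042, 0.446 ± 0.097, 0.455 ± 0.031 and 0.430 ± 0.029 in the same order. All 3 WT zymosan CD101pos libraries lay below every CD101neg library of either genotype, and all other pairs of groups overlapped. The separation from the WT CD101neg libraries held in the other summaries of the ratio that were computed. That from the CGD CD101neg libraries was lost without mt-Co1 (highest WT CD101pos log2 ratio -2.15, lowest CGD CD101neg -2.21), from the 6 mitochondrial genes with under 10% shared words (-2.41 and -2.53), and as a difference of mean log2 CPM (-0.068 and -0.33). Without mt-Co1 the WT zymosan CD101pos libraries also lay below the WT naive (lowest -2.13) and CGD zymosan CD101pos libraries (lowest -2.14). From the 6 genes they also lay below the WT naive libraries (lowest -2.40). With 3 libraries in a group no exact permutation test could fall below 0.10, and none was run on this sum over the members.

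The nuclear genes took 0.568 to 0.602% of all counts in WT naive, 0.476 to 0.592% in CGD naive, 0.395 to 0.514% in WT zymosan CD101pos, 0.363 to 0.429% in CGD zymosan CD101pos, 0.381 to 0.428% in WT zymosan CD101neg and 0.275 to 0.325% in CGD zymosan CD101neg libraries. The mitochondrial genes took 0.201 to 0.278, 0.164 to 0.257, 0.129 to 0.175, 0.154 to 0.202, 0.160 to 0.205 and 0.121 to 0.137% in the same order. CGD zymosan CD101neg libraries thus had the smallest nuclear share of the 18 libraries, without overlap with any other group. These libraries also had the lowest TMM factors, so a share of all counts and a scaled level differ for them. In such bulk samples fewer cells of a type and less RNA per cell cannot be told apart. The 2 mitochondrial ribosomal RNAs, which are not members, took 0.385 to 0.513% of counts in WT naive, 0.346 to 0.455% in CGD naive, 0.296 to 0.396% in WT zymosan CD101pos, 0.174 to 0.233% in CGD zymosan CD101pos, 0.332 to 0.383% in WT zymosan CD101neg and 0.195 to 0.231% in CGD zymosan CD101neg libraries.

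**Figure D2:**
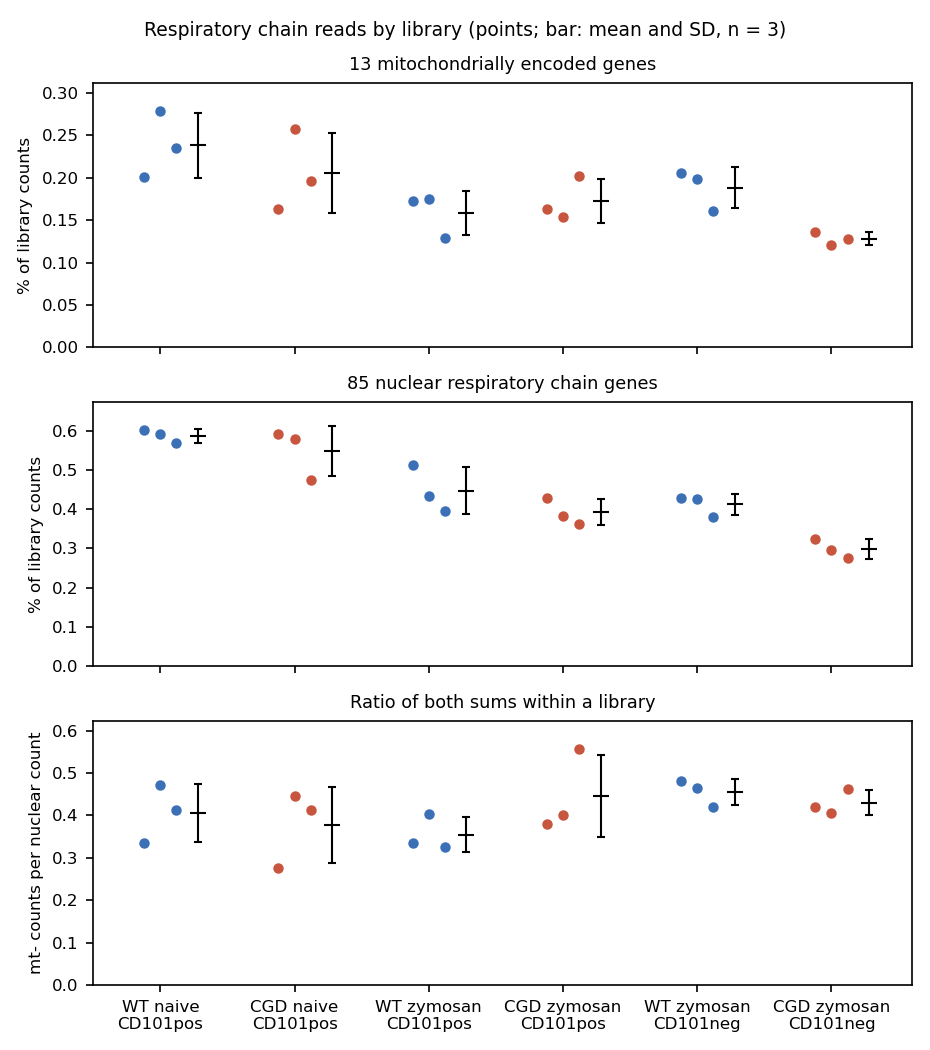
The panels show, for each of the 18 libraries by group, the percentage of all counts from the 13 mitochondrial genes, the percentage from the 85 nuclear genes, and mitochondrial reads per nuclear read, with bars for the group mean and SD (n = 3; blue WT, red CGD). The nuclear percentage is lowest in CGD zymosan CD101neg libraries (0.275 to 0.325%), and the ratio overlaps between groups except for WT zymosan CD101pos (0.326 to 0.403) against both CD101neg groups, of which that of CGD overlaps in other summaries of the ratio.

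The mitochondrial genes did not keep fixed proportions to each other. mt-Co1 reads per mt-Nd1 read were 2.22, 2.28 and 2.35 in the WT naive libraries, 2.02, 2.32 and 3.74 in CGD naive, 2.30, 6.23 and 3.56 in WT zymosan CD101pos and 3.28, 2.58 and 2.86 in CGD zymosan CD101pos. They were 2.24, 4.90 and 2.61 in WT zymosan CD101neg and 5.88, 5.34 and 4.87 in CGD zymosan CD101neg. All 3 CGD zymosan CD101neg libraries were high, and of the other groups only the second WT zymosan CD101pos and CD101neg libraries reached their range. mt-Cytb per mt-Nd1, both free of shared words, was 2.99, 3.12 and 3.07 in CGD zymosan CD101neg libraries and at most 2.91 in the others. Within every group but WT naive, mt-Co1 in CPM was highest in the library with the lowest TMM factor, and this was also so for the nuclear Cox4i1 in the 4 zymosan groups.

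Differences in single genes were tested with edgeR's quasi-likelihood test in 1 fit of all 18 libraries, with Benjamini-Hochberg adjustment over the 16575 genes tested and calls at an adjusted p under 0.05. This fit included 96 of the 98 members, 13 mitochondrial and 83 nuclear, and left out Cox7b2 and Cox8c for low counts. Over 7 pairwise comparisons and 2 interactions there were 12 calls among 864 member tests, on 11 members.

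Zymosan against naive WT CD101pos cells had the lowest median of the mitochondrial genes among the 7 pairwise comparisons. The calls were mt-Nd6, mt-Atp6 and mt-Nd2, which all fell, while no nuclear member was called. Against 0.875% of all genes called lower in this comparison (2.92% higher, 3.79% in either direction), these were 3 of 13 mitochondrial and 0 of 83 nuclear members. At an unadjusted p under 0.05 stood 8 of the 13 mitochondrial and 6 of the 83 nuclear genes, against 16.8% of all genes. DESeq2, run as an alternative, called 7 members, beside 875 genes higher and 347 lower of 16575.

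mt-Nd6, a complex I subunit at chrM:13552-14070 and the only member on the light strand, was at 28, 36.7 and 35.1 CPM in the WT naive libraries and at 20.0, 16.3 and 14.4 CPM in the WT zymosan CD101pos libraries. The groups did not overlap, and the log2 fold change was -0.98 ± 0.22 (SE; edgeR adjusted p = 0.0157). The strand setting of the counting is not stated, and without it reads of mt-Nd6 cannot be told apart from reads of the heavy-strand precursor. mt-Nd2, a membrane subunit of complex I at chrM:3914-4951, was at 121, 158 and 127 CPM in the naive and 94.5, 72.6 and 67.9 CPM in the zymosan libraries. All zymosan libraries were lower, with a log2 fold change of -0.79 ± 0.18 (edgeR adjusted p = 0.0202). mt-Atp6, the proton channel subunit of ATP synthase at chrM:7927-8607, was at 15.6, 20.7 and 24.7 CPM in the naive and 11.6, 12.5 and 10.8 CPM in the zymosan libraries. These groups also did not overlap (log2 fold change -0.80 ± 0.18, edgeR adjusted p = 0.0159), but nearly all of this gene is shared with its nuclear copy.

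The other mitochondrial genes were not called, with log2 fold changes of -0.59 for mt-Nd1 (edgeR adjusted p = 0.103), -0.60 for mt-Nd5 (0.0695), -0.60 for mt-Nd3, -0.50 for mt-Co3, -0.39 for each of mt-Nd4, mt-Cytb and mt-Co2, and with mt-Co1 at 0.17, while mt-Nd4l and mt-Atp8 were under 1 CPM. The median over the 13 genes was -0.59, with 12 negative, beside -0.09 over the nuclear members and -0.03 over all genes. With library sizes alone as scaling 13 members were called, beside 617 genes lower and 264 higher of 16575, and the median of all genes moved to -0.33. For mt-Co1 the WT zymosan CD101pos libraries were at 502, 1007 and 542 CPM, on both sides of the naive ones at 550, 693 and 577 CPM. Each call depended on single libraries. mt-Nd6 and mt-Atp6 lost theirs without WT naive replicate 2 or 3 or WT zymosan CD101pos replicate 3 (adjusted p up to 0.0850 and 0.117), and mt-Nd2 without replicate 2 or 3 of either group (up to 0.130).

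**Figure D3:**
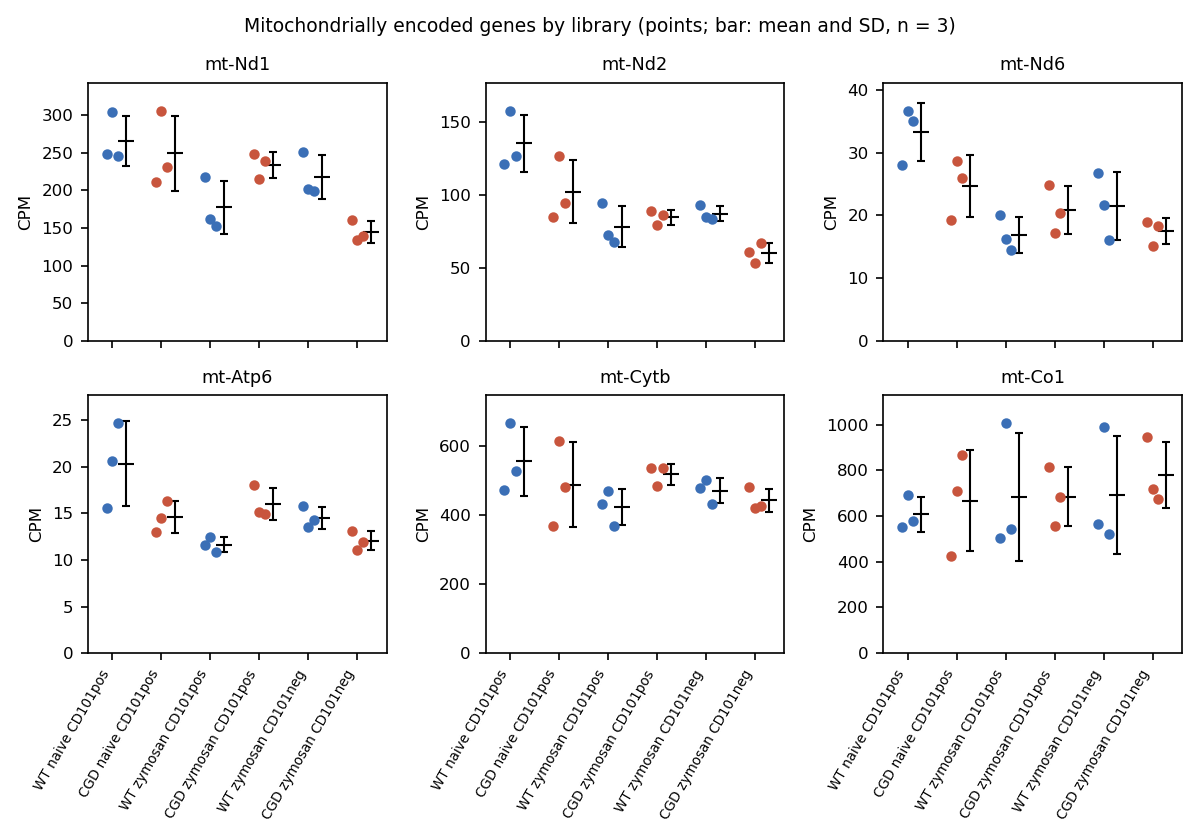
CPM of 6 mitochondrial genes in each of the 18 libraries, by group (blue WT, red CGD; black marks are the group mean and SD, n = 3). mt-Nd1, mt-Nd2, mt-Nd6 and mt-Atp6 are lower in WT zymosan CD101pos than in WT naive libraries (mt-Nd2 67.9 to 94.5 against 121 to 158 CPM), while mt-Co1 overlaps between all groups.

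In CGD CD101pos cells zymosan went with calls on nuclear genes only: Atp5g1 rose, and Ndufa6 and Atp5c1 fell. They were 1 higher and 2 lower of 96 members, against 7.13% and 5.71% of all genes (12.8% in either direction). At an unadjusted p under 0.05 stood 15 of 96 members, all nuclear, against 26.5% of all genes. The median log2 fold change was -0.05 over the mitochondrial and -0.12 over the nuclear members, beside 0.00 over all genes.

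Ndufa6, an accessory subunit of complex I (chr15:82350140-82354322), was at 80.3, 82.9 and 83 CPM in the CGD naive and 63.2, 42.5 and 34.6 CPM in the CGD zymosan CD101pos libraries. The groups were apart (log2 fold change -0.81 ± 0.21, edgeR adjusted p = 0.0132), and the WT libraries were also at 84.1 to 91.5 CPM in naive and 50.2 to 63.3 CPM in zymosan CD101pos cells. Atp5c1, the rotating gamma subunit of ATP synthase (chr2:10056016-10080510), was at 201, 184 and 181 CPM in naive and 149, 107 and 88.0 CPM in zymosan libraries. It fell without overlap (log2 fold change -0.72 ± 0.21, edgeR adjusted p = 0.0320). Atp5g1, which encodes the proton-carrying c subunit (chr11:96068852-96075670), was at 14.9, 18.8 and 13.9 CPM in naive and 28.9, 26.0 and 26.8 CPM in zymosan libraries. All zymosan libraries were higher (log2 fold change 0.78 ± 0.24, edgeR adjusted p = 0.0378), and 11.1% of its words occur in other transcripts. With library sizes alone as scaling this rise was not called (0.51, adjusted p = 0.300), and the median of all genes moved to -0.24.

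Leaving out single libraries ended these calls as well. Ndufa6 lost its call without CGD zymosan CD101pos replicate 2 or 3 (adjusted p up to 0.0726), Atp5c1 without those or CGD naive replicate 1 or 2 (up to 0.143), and Atp5g1 without any CGD zymosan CD101pos library or CGD naive replicate 1 or 3 (up to 0.129). The mitochondrial 12S ribosomal RNA mt-Rnr1, not a member, fell in this comparison (log2 fold change -0.88 ± 0.27, edgeR adjusted p = 0.0355), and mt-Rnr2 was at -0.76 ± 0.26 (adjusted p = 0.0610).

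The difference between the zymosan effects of the 2 genotypes was tested as an interaction in CD101pos cells. No member was called by edgeR, against 0.320% of all genes (0.163% higher and 0.157% lower), with 5 of 96 members at an unadjusted p under 0.05 against 10.7% of all genes. DESeq2 called 1, mt-Atp6, higher, beside 118 genes higher and 143 lower of 16575. The median interaction was 0.48 over the mitochondrial and -0.05 over the nuclear members, beside 0.01 over all genes, and mt-Atp6 was at 0.94 ± 0.25 (edgeR adjusted p = 0.151).

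**Figure D4:**
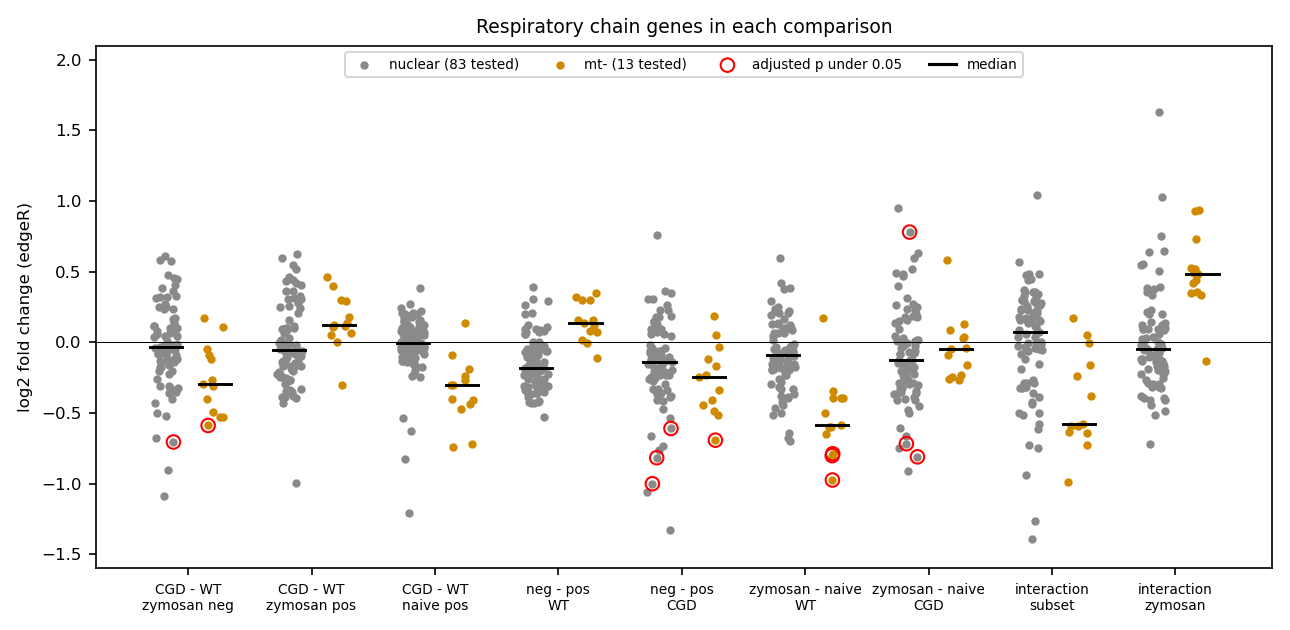
Log2 fold changes of the 96 tested members in 7 pairwise comparisons and 2 interactions, with mitochondrial genes in orange, nuclear genes in grey, black lines at the medians and red rings at an adjusted p under 0.05 (edgeR). In WT CD101pos cells after zymosan the mitochondrial median is -0.59 and the nuclear median -0.09, and the 12 rings are spread over 4 comparisons.

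CGD against WT CD101neg cells after zymosan gave 2 calls, mt-Nd1 and Ndufa4l2, both lower in CGD. They were 2 of 96 members, against 6.24% of all genes called lower, 6.67% called higher and 12.9% in either direction. At an unadjusted p under 0.05 stood 18 of 96 members, 4 of them mitochondrial, against 28.2% of all genes. Of the 13 mitochondrial genes 11 were negative with a median of -0.30, beside -0.03 over the nuclear members and -0.08 over all genes.

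mt-Nd1, a membrane subunit of complex I at chrM:2751-3707 that shares no word with another transcript, was at 161, 134 and 139 CPM in CGD and 251, 202 and 199 CPM in WT zymosan CD101neg libraries. The CGD libraries were all lower than the WT ones, and of the other groups only 1 WT zymosan CD101pos library, at 152 CPM, lay in their range. The log2 fold change was -0.59 ± 0.19 (edgeR adjusted p = 0.0492). mt-Nd2 was at -0.53 (adjusted p = 0.0670), mt-Nd5 at -0.50 (0.0753) and mt-Nd3 at -0.53, whereas mt-Cytb was at -0.09 and mt-Co1 at 0.17. The other complex I genes were nearer to 0, with mt-Nd4 at -0.05 and mt-Nd6 at -0.30. Ndufa4l2, a relative of the complex IV subunit Ndufa4 that is known as a hypoxia-induced gene (chr10:127514967-127517154), was at 9.90, 5.82 and 9.37 CPM in CGD and 14.5, 12.7 and 13.7 CPM in WT libraries. It was lower in all 3 CGD libraries (log2 fold change -0.71 ± 0.21, edgeR adjusted p = 0.0350).

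Both calls were near the threshold. mt-Nd1 lost its call without any of the libraries except CGD zymosan CD101neg replicate 1 (adjusted p up to 0.172). It also lost it with relative log expression scaling (0.0608), with the replicate block and in a fit of these groups alone (0.145). Ndufa4l2 lost its call without WT replicate 1 or 3 or CGD replicate 2 or 3 (up to 0.170) and in the fit of these groups alone (0.138). With library sizes alone as scaling 36 members were called, all lower in CGD and 8 of them mitochondrial, beside 3572 genes lower and 413 higher of 16575, while the median of all genes moved to -0.57. In the fit of all 18 libraries no member was called higher in CGD. The nuclear genes nearest to a call there were Atp5mpl (0.58 ± 0.20, adjusted p = 0.0598) and Uqcrq, a small complex III subunit (0.61 ± 0.22, adjusted p = 0.0690), both named after their values were seen. Members called higher in CGD were 1 with relative log expression scaling (beside 1183 genes higher), 1 with the replicate block (1127) and 2 with DESeq2 (1547). There was also 1 without WT replicate 2 (beside 1029 genes higher) and 1 without CGD replicate 3 (824).

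In CGD against WT CD101pos cells after zymosan no member was called by edgeR, against 5.30% of all genes (2.77% higher and 2.53% lower). At an unadjusted p under 0.05 stood 8 of 96 members against 17.9% of all genes. DESeq2 called 1, lower in CGD, beside 693 genes higher and 712 lower of 16575. The median was 0.12 over the mitochondrial genes, 12 of them positive, and -0.06 over the nuclear ones, beside 0.02 over all genes. Without WT zymosan CD101pos replicate 1, 4 members were called, all higher in CGD, beside 570 genes higher and 555 lower of 17187. Without CGD zymosan CD101pos replicate 1 there was 1, lower in CGD, beside 360 genes higher and 317 lower of 17211. In naive CD101pos cells edgeR called 0.127% of all genes (0.121% higher and 0.00603% lower) and no member, with 3 of 96 at an unadjusted p under 0.05 against 6.92% of all genes. DESeq2 called 0 members, beside 93 genes higher and 17 lower of 16575. The mitochondrial median there was -0.30 with 12 of 13 negative, and the lowest unadjusted p was that of mt-Atp6 (-0.48 ± 0.18, adjusted p = 0.585).

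CD101neg against CD101pos cells of CGD mice after zymosan gave the most calls of a comparison, 4 genes that were all lower in CD101neg cells, against 4.08% of all genes called lower, 3.27% called higher and 7.35% in either direction. They were mt-Nd1, the complex I genes Ndufa5 and Ndufa9 and the ATP synthase gene Atp5g2. At an unadjusted p under 0.05 stood 14 of 96 members, 4 of them mitochondrial, against 22.9% of all genes. The median was -0.25 over the mitochondrial, -0.14 over the nuclear members and -0.02 over all genes.

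mt-Nd1 was at 248, 215 and 239 CPM in the CGD CD101pos libraries and at 161, 134 and 139 CPM in the CD101neg libraries, which are the same CD101neg libraries as in the comparison with WT. The log2 fold change was -0.69 ± 0.19 (edgeR adjusted p = 0.0362). Ndufa9, an accessory subunit of the complex I arm that faces the matrix (chr6:126821721-126849136), was at 26.4, 20.4 and 20.9 CPM in CD101pos and 17, 11.9 and 9.53 CPM in CD101neg libraries. The groups did not overlap (log2 fold change -0.82 ± 0.23, edgeR adjusted p = 0.0396). Ndufa5, another accessory subunit of that arm (chr6:24518666-24528013), was at 8.59, 10.1 and 8.67 CPM in CD101pos and 5.33, 3.91 and 4.45 CPM in CD101neg libraries. It had the lowest estimate of the 4, at -1.0 ± 0.27 (edgeR adjusted p = 0.0333). Its level is under the 10 CPM set for naming a gene, and it is named after its values were seen.

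Atp5g2, another gene for the c subunit of ATP synthase (chr15:102662864-102672352), was at 20.4, 20.0 and 17.8 CPM in CD101pos and 12.1, 13.1 and 12.9 CPM in CD101neg libraries. The CD101neg libraries were the lowest of all 18 (log2 fold change -0.61 ± 0.18, edgeR adjusted p = 0.0426). Atp5g2 lost its call without any of the 6 libraries in turn (adjusted p up to 0.124), mt-Nd1 and Ndufa9 without any but CGD zymosan CD101neg replicate 1 (up to 0.140 and 0.166), and Ndufa5 without replicate 2 or 3 of either group (up to 0.138). With library sizes alone as scaling 13 members were called, beside 1163 genes lower and 82 higher of 16575, and the median of all genes moved to -0.34. With the replicate number as a block 17 members were called lower, 5 of them mitochondrial, beside 2069 genes lower and 1855 higher of 15791. Same-numbered CGD libraries may be pairs, which the 4 calls of the fit without the block leave out. The summed level of 10 monocyte and interstitial macrophage markers was 729 to 1098 CPM in the CGD CD101pos and 384 to 607 CPM in the CGD CD101neg libraries, that of the epithelial markers also differed as given above, and the part of both in these differences was not tested.

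**Figure D5:**
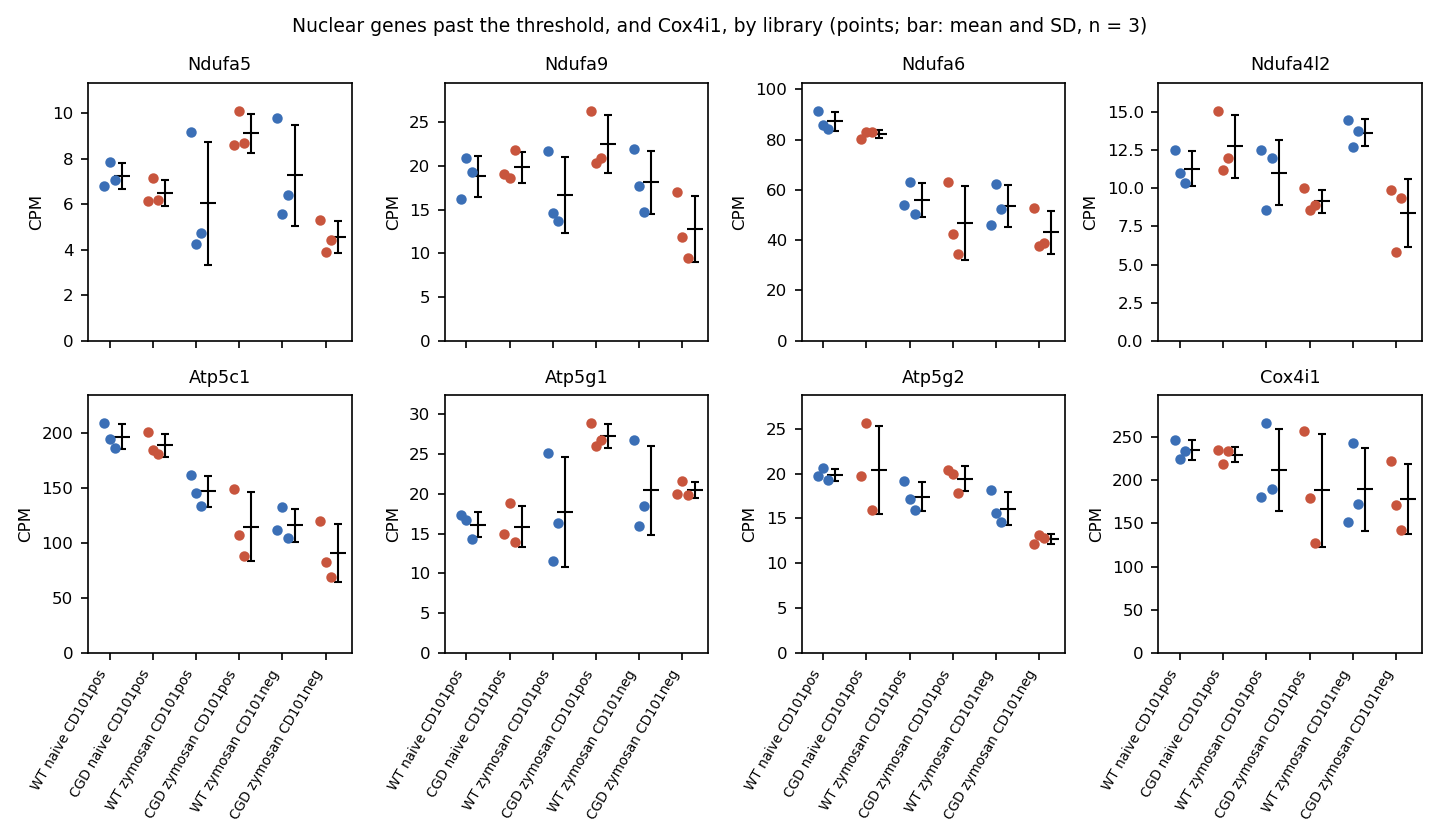
CPM of 8 nuclear members in each of the 18 libraries, by group (blue WT, red CGD; black marks are the group mean and SD, n = 3). Ndufa5, Ndufa9 and Atp5g2 are lower in CGD zymosan CD101neg than in CGD zymosan CD101pos libraries (Atp5g2 12.1 to 13.1 against 17.8 to 20.4 CPM), and Ndufa6 and Atp5c1 are lower after zymosan than in naive libraries.

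In WT cells after zymosan no member was called between CD101neg and CD101pos cells by edgeR, against 0.440% of all genes (0.410% higher and 0.0302% lower). There were 3 of 96 at an unadjusted p under 0.05 against 10.2% of all genes. DESeq2 called 0 members, beside 233 genes higher and 96 lower of 16575. The median was 0.13 over the mitochondrial genes (11 of 13 positive) and -0.18 over the nuclear ones (66 of 83 negative), beside 0.02 over all genes. The genes of a class are not independent of each other, and no test was run on these medians. Libraries of these 2 groups with the same number deviated together, and with the replicate number as a block, in a fit of 15791 genes, the calls rose from 73 to 1741 genes, 797 higher and 944 lower in CD101neg cells. That fit called no mitochondrial member. Against those 944 of 15791 genes, it called 5 of the 85 nuclear members lower in CD101neg cells, a share near that of all genes. They were Ndufa8 (-0.60, adjusted p = 0.00628), Ndufb9 (-0.46, adjusted p = 0.0276) and Ndufa13 (-0.45, adjusted p = 0.0373), all accessory subunits of complex I, Cox6a1 of complex IV (-0.43, adjusted p = 0.0325) and Atp5j2 of ATP synthase (-0.44, adjusted p = 0.0447). Ndufa8 was at 60.9, 105 and 67.1 CPM in the CD101pos libraries and at 34.3, 84.3 and 42.8 CPM in the CD101neg libraries, lower in each of the 3 pairs although the groups overlapped. In the lists described below the block called 3 of 45 assembly factors, 3 of 26 carrier genes, 1 of 17 TCA cycle genes and 1 of 24 import genes lower in CD101neg cells. It called 1 of 12 regulators and 2 of 76 mitochondrial ribosomal protein genes higher. Beside these stood the 944 lower and 797 higher of all 15791 genes. The fit without the block called none of the list genes, beside 73 of all genes.

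The interaction of genotype and CD101 after zymosan called no member with edgeR, against 0.851% of all genes (0.181% higher and 0.670% lower). At an unadjusted p under 0.05 stood 7 of 96 members, 4 of them mitochondrial, against 14.4% of all genes. DESeq2 called 2 members, both lower, beside 198 genes higher and 391 lower of 16575. Without WT zymosan CD101pos replicate 1 there were 2 calls, beside 89 genes higher and 408 lower of 17187. The median was -0.58 over the mitochondrial and 0.08 over the nuclear members, beside -0.01 over all genes. mt-Nd1 had the lowest unadjusted p (-0.99 ± 0.27, adjusted p = 0.0952). With the replicate block this interaction had 8 of the 98 members called lower, 4 of them mitochondrial with mt-Nd1 among them. With 1288 genes lower and 941 higher of 15791, the share of all members called lower was near that of all genes. For the mitochondrial genes alone, 4 of 13, it was higher. The genes of a class are not independent of each other, and no test was run on this share. The numbers were not taken to pair the CGD libraries, although they may do so. Same-numbered CGD subset libraries correlated at 0.0245 to 0.260, against at most 0.0121 for other numbers. The fit without a block leaves such a pairing out.

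Nuclear respiratory chain genes are known targets of the transcription factors NRF1, GABP (an ETS factor) and YY1, so the promoters were searched for their core letters on both strands, from 250 bases before to 50 after the start (RefSeq, GRCm38.p6). The promoter table held 67 of the 85 nuclear members. GCGCATGCG (NRF1) occurred in 8 of them (11.9%), against 1.95% of all 27025 promoters and 3.71% of the 11399 promoters of genes tested here. CCGGAAG (ETS) occurred in 16 (23.9%), against 9.93% and 18.4%, and AAGATGGCG (YY1) in 7 (10.4%), against 1.64% and 3.20%. These are matches of letters and not shown binding sites. Promoters with the NRF1 letters, in capitals, are printed for the 3 members with such a match that were called in a comparison of CD101neg with CD101pos cells: Atp5g2 in CGD mice, and Ndufa8 and Cox6a1 in WT mice with the block.
Atp5g2 at chr15:102671055-102671114, minus strand, match starting 42 bases before the start: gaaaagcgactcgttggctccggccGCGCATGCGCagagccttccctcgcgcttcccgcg
Ndufa8 at chr2:36049339-36049398, minus strand, match starting 9 bases before the start: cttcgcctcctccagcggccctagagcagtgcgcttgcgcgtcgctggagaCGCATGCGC
Cox6a1 at chr5:115349086-115349145, minus strand, match starting 162 bases before the start: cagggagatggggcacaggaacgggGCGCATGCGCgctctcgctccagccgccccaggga
In Atp5g2 and Cox6a1 the letters match on both strands with an overlap. Among the YY1 matches were Atp5j2 and Ndufa9.

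The genes that build and serve the chain were read against the same shares of all genes. Of 45 tested assembly factors, 3 were higher and 0 lower in CGD than WT CD101neg cells after zymosan, against 6.67% and 6.24% of all genes. They were the complex I methyltransferase Ndufaf7 (1.4 ± 0.29, edgeR adjusted p = 0.00393), the copper chaperone Cox17 (0.80 ± 0.21, adjusted p = 0.0194) and Sdhaf2, which adds the flavin to complex II (0.76 ± 0.21, adjusted p = 0.0241). The median of the list was -0.21 in this comparison, opposite in sign to the calls. Coa5, a complex IV assembly factor, was lower in CGD than WT CD101pos cells (-0.69 ± 0.14, adjusted p = 0.00881) and lower after zymosan in CGD cells (-0.98 ± 0.15, adjusted p = 0.000175), which share the CGD zymosan libraries. Cox10, which makes the haem of complex IV, was the only assembly factor called between CGD subsets, lower in CD101neg cells (-1.28 ± 0.31, adjusted p = 0.0205).

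Of 29 tested genes for mitochondrial DNA replication, transcription and RNA handling, 1 was called in WT and 2 in CGD CD101pos cells after zymosan, all lower, against 0.875% and 5.71% of all genes called lower. Polg2, the accessory subunit of the mitochondrial DNA polymerase, fell in both genotypes (-0.88 ± 0.21, edgeR adjusted p = 0.0221 in WT and -1.0 ± 0.21, adjusted p = 0.00352 in CGD), and Grsf1, an RNA-binding protein of mitochondrial RNA granules, fell in CGD (-0.83 ± 0.26, adjusted p = 0.0406). In CGD CD101neg cells Rexo2, which degrades short RNAs, was lower than in WT CD101neg (-1.05 ± 0.29, adjusted p = 0.0239) and CGD CD101pos cells (-1.0 ± 0.29, adjusted p = 0.0458). Mterf1a was higher in CGD than WT CD101neg cells (0.97 ± 0.31, adjusted p = 0.0481). In that comparison 1 gene of the list was higher and 1 lower, against 6.67% and 6.24% of all genes. Tfam and Polrmt, the core factors of mitochondrial transcription, were not called in any comparison.

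Among 76 tested mitochondrial ribosomal protein genes, 1 was higher and 1 lower after zymosan in WT and 6 higher and 4 lower in CGD CD101pos cells. The shares of all genes were 2.92% higher and 0.875% lower in WT, and 7.13% and 5.71% in CGD. Mrpl52, of the large subunit, rose in both (2.22 ± 0.31, edgeR adjusted p = 0.000370 in WT and 2.18 ± 0.31, adjusted p = 0.000112 in CGD). Mrps15, of the small subunit, fell in both (-0.69 ± 0.16, adjusted p = 0.0213 and -1.19 ± 0.16, adjusted p = 9.62e-05). Mrps15 was also lower in CGD than WT CD101neg cells (-1.21 ± 0.17, adjusted p = 0.000134), where 1 gene of this list was higher and 4 were lower. The shares of all genes there were 6.67% and 6.24%. The higher gene was Mrpl45 (1.17 ± 0.24, adjusted p = 0.00355). Between CGD subsets 2 genes of this list were higher and 6 lower in CD101neg cells, against 3.27% and 4.08% of all genes.

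Of 17 tested genes of the TCA cycle, which feeds NADH and succinate to the chain, 1 was higher and 3 were lower in CGD than WT CD101neg cells after zymosan, and 0 were higher and 3 lower in CGD CD101neg than CD101pos cells. The shares of all genes were 6.67% higher and 6.24% lower in the former comparison, and 3.27% and 4.08% in the latter. Fumarate hydratase Fh1 was lower in both (-1.12 ± 0.25, edgeR adjusted p = 0.00694 and -1.53 ± 0.25, adjusted p = 0.00209), as was the isocitrate dehydrogenase Idh2 (-1.36 ± 0.33, adjusted p = 0.0123 and -1.41 ± 0.33, adjusted p = 0.0185), and the 2 comparisons share the CGD CD101neg libraries. The gene called higher in CGD than WT CD101neg cells was Dld (0.66 ± 0.19, adjusted p = 0.0302). For Fh1 the difference between genotypes in the subset effect was itself called (-1.64 ± 0.35, adjusted p = 0.0312). The list medians were -0.20 and -0.28, beside -0.08 and -0.02 over all genes.

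Of 26 tested genes for electron carriers, exchange and uncoupling, 2 were higher in CGD than WT CD101neg cells and 5 were lower in CGD CD101neg than CD101pos cells, against 6.67% of all genes higher and 4.08% lower. Coq2, an enzyme of ubiquinone synthesis, was higher in CGD than WT cells after zymosan in CD101neg (2.25 ± 0.30, edgeR adjusted p = 0.000108) and CD101pos cells (1.60 ± 0.29, adjusted p = 0.00355). The phosphate carrier Slc25a3 was higher in CGD than WT CD101neg cells (0.83 ± 0.20, adjusted p = 0.00937). Among the genes lower in CGD CD101neg than CD101pos cells were Coq3 (-1.91 ± 0.39, adjusted p = 0.00820), Dhodh (-1.26 ± 0.29, adjusted p = 0.0169) and the ADP/ATP carrier Slc25a4 (-0.86 ± 0.21, adjusted p = 0.0229). Of 24 tested genes for protein import and inner membrane organisation, 1 was higher and 2 were lower in CGD than WT CD101neg cells, against 6.67% and 6.24% of all genes. The higher gene was Timm8b (0.54 ± 0.17, adjusted p = 0.0461), and the cristae protein Chchd3 was among the lower ones (-0.74 ± 0.21, adjusted p = 0.0256).

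Of 12 tested regulators of respiration genes, 1 was higher and 1 lower in CGD than WT CD101neg cells after zymosan. The shares of all genes there were 6.67% and 6.24%. Esrra, a nuclear receptor that drives oxidative genes, was the higher one (1.37 ± 0.34, edgeR adjusted p = 0.0122), at low means of 4.26 CPM in CGD and 1.65 CPM in WT. The lower one was the coactivator gene Ppargc1b, which was under 1 CPM in every group. Between CGD subsets 2 were higher and 1, again Ppargc1b, lower in CD101neg cells, against 3.27% and 4.08% of all genes. The higher ones were Gabpa, the DNA-binding part of GABP (0.91 ± 0.27, adjusted p = 0.0462), and Sp1 (0.78 ± 0.17, adjusted p = 0.0101). Sp1 was lower in CGD than WT CD101pos cells (-0.63 ± 0.17, adjusted p = 0.0319), where Ppard was higher (0.82 ± 0.23, adjusted p = 0.0410). The shares of all genes there were 2.77% higher and 2.53% lower. Nrf1 and Yy1 were not called in any comparison.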

How the data were processed

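The deposited table holds raw read counts per gene for 18 libraries, made by the authors with STAR 2.5.1a and featureCounts 1.4.6-p5 of Subread, per the submitters' processing notes. Total RNA was isolated with an RNeasy kit and libraries made with a SMARTer kit, per the labels' protocols. The sources used here do not give the genome build, annotation, strand setting or treatment of multi-mapping reads. Of 40757 lines 276 repeated a gene ID and were counted once. Counts were tested with edgeR 4.0.16 (limma 3.58.1, R 4.3.3): TMM factors, filterByExpr by group (16575 genes kept), robust quasi-likelihood fit of 6 group means (12 residual degrees of freedom, common biological coefficient of variation 33.0%), Benjamini-Hochberg adjustment over all genes tested. The method was tested on simulated data. Replicates of a group correlated at 0.958 to 0.981 (log2 CPM, across genes). CPM per kilobase used the union of exons in GENCODE M21 (GRCm38), and all 98 members matched by ID. Sums and ratios over the members are described without a test.

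Named are every mitochondrial gene, up to 3 called nuclear members per comparison and complex with at least 10 CPM in the higher group, the 3 most abundant nuclear members, and up to 3 called genes per list and comparison. The members and lists were chosen with earlier results of these data known. Pairing was checked by the correlation of deviations from group means. WT zymosan CD101pos and CD101neg libraries of the same number gave 0.312 to 0.487, against at most -0.109 for other numbers, so the numbers were taken to pair them. The CGD pairs gave 0.0245 to 0.260, against at most 0.0121 for other numbers. The CGD subset libraries may thus also be paired, with weaker correlations, and the fit without a block leaves such a pairing out. Alternatives were other scalings, no filter on low counts, DESeq2 1.42.0, only the groups compared, a replicate block and leaving out each library. Deeper libraries give smaller counting errors. With 3 libraries per group the spread between libraries limits the precision.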

Additional observations from a re-analysis of the deposited data

How the results depend on the processing

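The direction of the 12 calls held under the alternatives run, and each call was lost under at least 2 of 12. With library sizes alone as scaling the members called were 36 in CGD against WT CD101neg cells, 13 between CGD subsets, 13 and 21 for zymosan in WT and CGD, and 1 for the interaction of genotype and subset. Of all 16575 genes 413 were higher and 3572 lower in the first of these, and 82 and 1163 between CGD subsets. For zymosan 264 and 617 were called in WT and 727 and 2021 in CGD, and for the interaction 1 and 163. In fits of only the groups compared the members called were 0 in CGD against WT CD101neg, beside 647 genes higher and 415 lower of 14563. For zymosan in WT there was 1, beside 454 genes higher and 151 lower of 14905. DESeq2 called 5 in CGD against WT CD101neg, 1 in CGD against WT CD101pos, 7 between CGD subsets, 7 and 6 for zymosan in WT and CGD, and 2 and 1 for the terms of genotype by subset and genotype by zymosan. Of all 16575 genes it called 1547 higher and 1400 lower, 693 and 712, and 1059 and 1077 in the first 3 of these. For zymosan it called 875 and 347 in WT and 1556 and 1271 in CGD. For the terms of genotype by subset and by zymosan it called 198 and 391, and 118 and 143. With the replicate block the counts were 5 between WT subsets, 17 between CGD subsets (5 mitochondrial), 5 for zymosan in CGD and 8 for the interaction of genotype and subset (4 mitochondrial), with 3 in CGD against WT CD101neg, 4 for zymosan in WT and 0 in the other 3. Across genotypes or challenges the block joined libraries of different mice by number alone. Same-numbered WT and CGD CD101neg libraries correlated at -0.177 to 0.0686, against up to 0.253 for other numbers. Over all 15791 genes of that fit the block gave 1741 calls between WT subsets, and 1855 higher and 2069 lower between CGD subsets, against 73 and 1218 of 16575 without it. For the interaction of genotype and subset it gave 941 higher and 1288 lower of 15791. Of 16575 genes it gave 1127 higher and 1038 lower in CGD against WT CD101neg. For zymosan it gave 459 and 162 in WT, and 1213 and 1009 in CGD. The numbers were taken to pair the WT subsets only, although same-numbered CGD subset libraries also correlated above those of other numbers. Leaving out each library in turn gave 0 to 3 calls in CGD against WT CD101neg, 0 to 4 in CD101pos, 0 to 0 in naive cells, 0 to 0 between WT and 0 to 5 between CGD subsets, 0 to 3 and 0 to 7 for zymosan in WT and CGD, and 0 to 2 and 0 to 0 for the interactions with subset and zymosan. Of the 17105 to 17273 genes per fit, 698 to 1029 were higher and 466 to 909 lower in the first of these. In CD101pos they were 188 to 570 and 132 to 555, in naive cells 1 to 60 and 1 to 4. Between subsets they were 3 to 273 and 0 to 127 in WT, 122 to 497 and 199 to 688 in CGD. For zymosan they were 215 to 489 and 44 to 128 in WT, 719 to 1020 and 451 to 871 in CGD. For the interactions they were 1 to 89 and 40 to 408 with subset, 4 to 30 and 1 to 24 with zymosan. The causes were not tested.

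The log2 ratio of mitochondrial to nuclear reads was -1.31, -1.43, -1.50, -1.19, -1.14 and -1.22 in WT naive, CGD naive, WT and CGD zymosan CD101pos, and WT and CGD zymosan CD101neg. As a difference of mean log2 CPM, which weights genes equally, it was 0.16, -0.15, -0.25, -0.076, 0.049 and -0.18. Without mt-Co1 it was -1.85, -2.08, -2.27, -1.86, -1.84 and -2.10. From the 6 genes with under 10% shared words, an alternative chosen after seeing the data, it was -2.13, -2.35, -2.56, -2.12, -2.11 and -2.41. WT zymosan CD101pos was lowest in all 4 summaries. Leaving out each library gave -1.43 to -1.18, -1.57 to -1.22, -1.6 to -1.44, -1.36 to -1.08, -1.18 to -1.08 and -1.27 to -1.18. Genes under 1 CPM and the 5 mitochondrial genes with near-complete nuclear copies are limited by depth and by read assignment.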
